A study of Homo sapiens with 16 samples.

Results

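The NF-kB and inflammatory genes are 36 genes chosen by symbol for their known roles: the Rel subunits, their inhibitors, the ubiquitin editors and receptor adapters that control them, and chemokines, cytokines and other targets. All 36 were found in the count tables of both experiments, among 28706 genes that could be joined between them. The cells were U2OS, an established human osteosarcoma line, and the study's question was how an edited MDM2 alters the response to ribosomal stress. Cells carrying the MDM2 mutation W329G, introduced by CRISPR/Cas9 editing, were set against isogenic wild-type (WT) cells, with 2 numbered lines of each genotype. Both were given 50 µM 5-FU (5-fluorouracil), a drug that disturbs RNA and DNA metabolism, or the solvent DMSO for 24 h. The 4 groups were therefore W329G with 5-FU, W329G with DMSO, WT with 5-FU and WT with DMSO. Each held 4 poly-A RNA-seq libraries, from cells 1 and 2 in experiment 1 and cells 1 and 2 in experiment 2, which were sequenced by different vendors. Experiment and vendor cannot be told apart.

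NF-kB is a family of dimeric transcription factors held in the cytoplasm by IkB proteins. Receptors for TNF and interleukin 1, and also DNA damage inside the cell, activate the IKK kinase, which marks IkB for destruction and frees the dimers to enter the nucleus. A slower non-canonical arm processes the NFKB2 product and works through RELB. Many of the targets are themselves brakes, such as NFKBIA, TNFAIP3 and BIRC3, so the level of a brake is often read as a record of pathway activity.

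The promoters of several members carry the motif these factors bind, shown here because brakes, whether called or not, and chemokines can be compared in it. Windows of 300 bases around RefSeq start sites (GRCh38.p14) were matched by symbol for 32 of the 36 members, with 48 windows in all. The letters GGGNN followed directly by TTTCC, searched on both strands, occurred in windows of 16 of these 32 members (50.0%), against 2.33% of 27305 genes. The broader kB consensus decamer, whose matches overlap those of the first motif, occurred in windows of 20 of 32 members (62.5%), against 13.3% of all genes. The members include textbook NF-kB targets, so these shares describe the list only. Capitals below mark the matches to the kB consensus decamer, read along the gene's strand. BIRC3 (chr11:102317264-102317363, plus strand), which had the largest fold increase among the members called in WT cells, has a pair of matches. NFKBIZ (chr3:101827740-101827819, plus strand) and NFKBIA (chr14:35404790-35404849, minus strand) each show 1 in the stretch printed.
BIRC3: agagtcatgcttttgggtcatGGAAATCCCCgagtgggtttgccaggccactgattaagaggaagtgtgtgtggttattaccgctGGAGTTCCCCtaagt
NFKBIZ: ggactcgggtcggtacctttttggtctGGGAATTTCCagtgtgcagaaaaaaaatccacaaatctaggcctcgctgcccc
NFKBIA: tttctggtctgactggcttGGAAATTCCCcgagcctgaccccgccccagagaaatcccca

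Shorter stretches of 30 bases show the matches of TNFAIP3 (chr6:137867188-137867217, plus strand), the member called in W329G cells. Those of IRF1 (chr5:132490804-132490833, minus strand) and CYLD (chr16:50741887-50741916, plus strand), both called in WT cells, and of IL32 (chr16:3065294-3065323, plus strand), the member with the largest called genotype difference, follow.
TNFAIP3: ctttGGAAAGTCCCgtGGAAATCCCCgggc
IRF1: ggccagggctGGGGAATCCCgctaagtgtt
CYLD: ttgacagagcGGAAAGTCCCttcggccggc
IL32: cctgtactcaGGGAGTTTCCCcagccagct

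The neighbouring chemokine genes CXCL1 (chr4:73869304-73869333, plus strand), CXCL2 (chr4:74099254-74099283, minus strand) and CXCL3 (chr4:74038749-74038778, minus strand) share the same 11 capital letters. They are near-identical copies of each other, so reads between them may be split uncertainly.
CXCL1: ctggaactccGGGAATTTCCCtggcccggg
CXCL2: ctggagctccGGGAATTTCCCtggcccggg
CXCL3: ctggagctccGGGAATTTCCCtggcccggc

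No match was found in the windows of PLAU, TNFAIP2, TRAF4 or TRAF2, and no window was at hand for RELB or NFKBIE. Whether any match is bound in these cells was not measured.

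The libraries held between 24715999 and 56877328 counts. A level is given as CPM, the count scaled to the size of the library, and 3 counts corresponded to 0.0534 to 0.124 CPM. Library values are listed in the order cells 1 and cells 2 of experiment 1, then cells 1 and cells 2 of experiment 2. The edited gene and a p53 target give the scale: MDM2 averaged 75.2 ± 19.4 CPM in W329G cells with 5-FU and 72.8 ± 31.8 CPM with DMSO, and 229 ± 42.4 CPM in WT cells with 5-FU and 60.9 ± 18.4 CPM with DMSO (SD, n = 4). CDKN1A, the p21 cell cycle inhibitor, averaged 155 ± 66.7 CPM in W329G cells with 5-FU and 93.9 ± 33.8 CPM with DMSO, and 678 ± 336 CPM in WT cells with 5-FU and 118 ± 37.7 CPM with DMSO. These are levels, and do not show which allele was transcribed. Of the bone and mesenchymal markers, COL1A1 (2330 to 9200 CPM), SPARC (1480 to 4350 CPM) and VIM (754 to 1750 CPM) were high over the 16 libraries. CDH11 (17 to 76.6 CPM) and the bone transcription factor RUNX2 (21.5 to 75.8 CPM) were intermediate, and COL1A2 (0.198 to 9.02 CPM) and the bone phosphatase ALPL (0.168 to 8.17 CPM) were low.

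Over the whole list, 5-FU was followed by increases and by no decrease that passed the test, and more members passed in WT than in W329G cells. In W329G cells 1 member rose, TNFAIP3, where 0.195% of 16446 genes rose, 0.59% fell and 0.784% changed either way. In WT cells 8 members rose, where 3.56% of the genes rose, 5.23% fell and 8.79% changed either way: BIRC3, NFKBIZ, PLAU, RELB, TNFAIP2, TRAF4, CYLD and IRF1. VCAM1, an adhesion molecule with 0 to 6 counts per library, was too low to be tested, so 35 members were tested. The median log2 change of the 35 was 0.28 in W329G cells against 0.02 for all genes, and 0.28 in WT cells against 0.01 for all genes. The difference between the responses passed for 0 members in edgeR's quasi-likelihood test and for 0 in DESeq2, and 4 members had an unadjusted p under 0.05. Of all genes, edgeR called 1.2% for this difference (0.693% higher, 0.511% lower in W329G cells) and DESeq2 2.88%. The counts of calls in the genotypes are thus no measure of a difference between them.

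**Figure D1:**
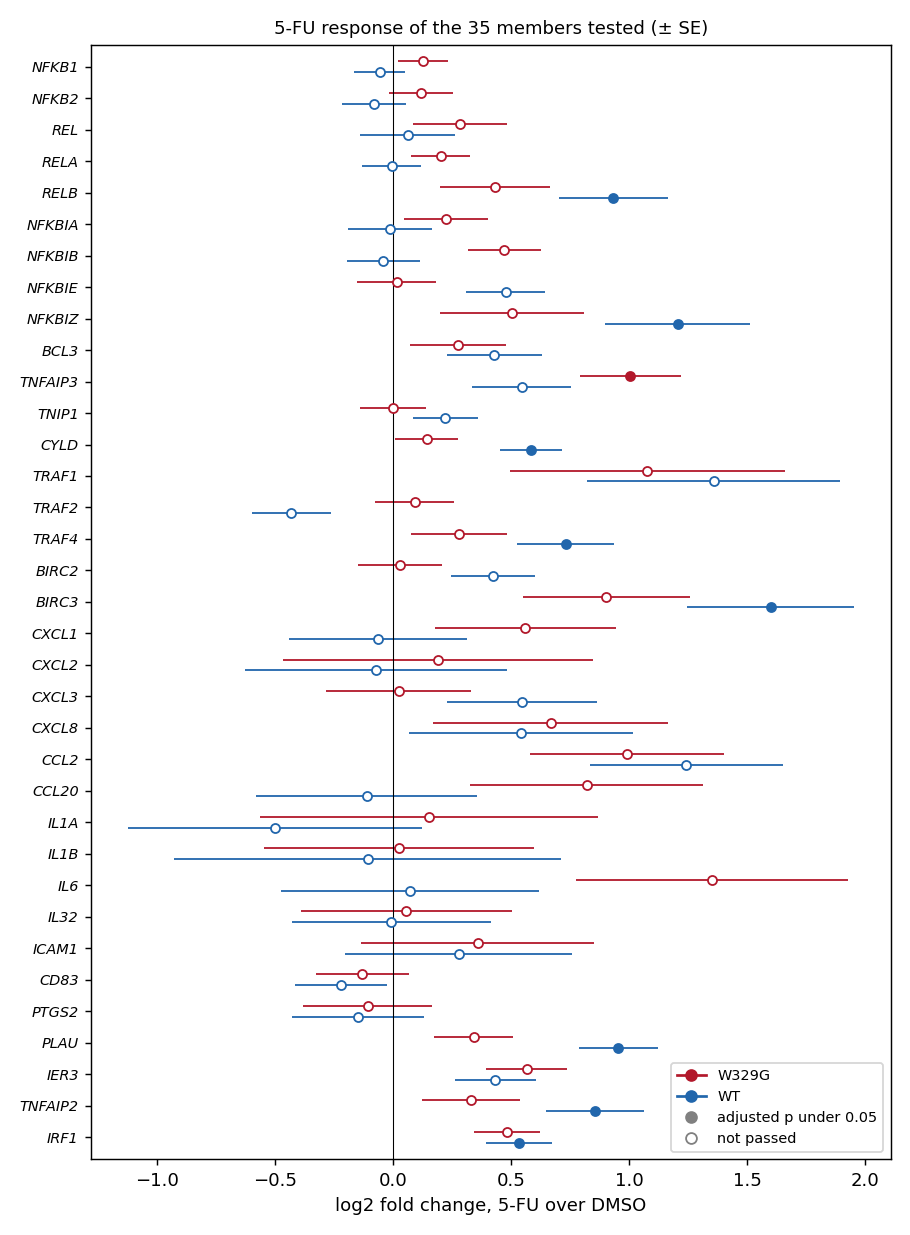
Log2 fold change (5-FU over DMSO, x axis) of the 35 members tested, ordered by role from the top, with the W329G estimate above the WT estimate for each gene; bars are standard errors and filled points have an adjusted p under 0.05. TNFAIP3 is the filled W329G point (1.00), and the 8 filled WT points lie between 0.53 for IRF1 and 1.60 for BIRC3.

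The pairs of libraries give a second view. DMSO and 5-FU libraries of the same line and experiment varied together, and a fit with a term for each such pair called 5 members higher in W329G cells (10.9% of all genes called, 5.14% higher) and 15 in WT cells (24.8% of all genes called, 11.6% higher). The W329G members called there were TNFAIP3, NFKBIB, CCL2, IER3 and IRF1. The WT members were the 8 above together with NFKBIE, BCL3, TNFAIP3, TRAF1, BIRC2, CCL2 and IER3. A term for each line beside the term for experiment left the counts at 1 in W329G cells (0.468% of all genes), 9 in WT cells (8.12%) and 0 for the difference (1.09%). DESeq2, run without pairing, called 3 members in W329G cells (3.48% of all genes), among them TNFAIP3. It called 11 in WT cells (12.7%), among them the 8 above. Some members that missed in edgeR without pairing thus passed in DESeq2. In the responses below, passing refers to edgeR with terms for group and experiment unless another fit is named. All 4 pairs were higher with 5-FU for 13 of the 35 members in W329G cells (37.1%, against 17.2% of all genes) and for 15 in WT cells (42.9%, against 20.8%). All 4 pairs were lower for 0 members in either genotype, against 17% of all genes in W329G cells and 21.2% in WT cells. In 0 members did the 5-FU libraries lie wholly below the DMSO libraries, against 2.62% of all genes in W329G cells and 4.69% in WT cells.

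Among the Rel subunits, only RELB was called in a response, and its called rise was in WT cells. RELB had 6.68, 7.18, 2.47 and 2.63 CPM in W329G cells with 5-FU, against 3.49, 6.61, 2.08 and 1.78 CPM with DMSO. In WT cells it had 17.4, 13.3, 6.05 and 5.34 CPM with 5-FU, against 8.32, 5.58, 4.31 and 2.54 CPM with DMSO. Each pair was higher with 5-FU in both genotypes, while the libraries of experiment 2 lay lower, so that the 5-FU and DMSO groups overlapped. The log2 change was 0.43 ± 0.23 (SE) in W329G cells (edgeR adjusted p = 0.465) and 0.93 ± 0.23 in WT cells (edgeR adjusted p = 0.0183).

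The other subunits did not pass in either genotype, and RELA, NFKB2 and NFKB1 stood above RELB per length. RELA, the main activating subunit, stood at 16.9 and 14.7 CPM per kilobase in W329G cells with 5-FU and DMSO, and at 17 CPM per kilobase in both WT groups. NFKB2, the p100 precursor of the non-canonical arm, stood at 10.8 and 10.1 CPM per kilobase in the W329G groups and at 10.4 and 11 in the WT groups, in the same order. NFKB1, the p105 precursor, stood at 4.98 and 4.56 CPM per kilobase in the W329G groups and at 3.93 and 4.07 in the WT groups, and ranged from 23.1 to 36.9 CPM over the W329G libraries and from 20.9 to 27.7 CPM over the WT libraries. RELB reached 1.56 and 1.15 CPM per kilobase in W329G cells with 5-FU and DMSO, and 3.47 and 1.71 in WT cells.

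REL, the c-Rel subunit, differed by experiment. It had 5.12 to 10.7 CPM in the 8 libraries of experiment 1 and 42.3 to 80.1 CPM in the 8 of experiment 2. In the annotation of experiment 1 another gene on the same strand, ENSG00000267520, covers chr2:60925909-60931610 within REL (GRCh38), and it had 0 counts. The part of this overlap in the lower counts was not tested, and the levels of REL are uncertain for that reason.

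In the IkB family, NFKBIZ, a nuclear member that works as a cofactor at secondary response genes, rose in WT cells. NFKBIZ had 37.5, 32.7, 24 and 32.1 CPM in W329G cells with 5-FU, against 21.1, 15.2, 20.5 and 31.1 CPM with DMSO. The WT libraries had 90.9, 71.5, 27.5 and 64.7 CPM with 5-FU, against 31.1, 22.6, 19 and 35.9 CPM with DMSO. The WT 5-FU library of cells 1 in experiment 2 lay below the highest DMSO library, and the other 3 lay above every DMSO library. This was a log2 change of 0.50 ± 0.31 in W329G cells (edgeR adjusted p = 0.522) and 1.21 ± 0.31 in WT cells (edgeR adjusted p = 0.0222). Within WT cells it was 1.60 in experiment 1 and 0.75 in experiment 2.

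NFKBIE, the IkB epsilon inhibitor, had 5.21, 5.45, 4.47 and 4.64 CPM in W329G cells with 5-FU, against 6.25, 5.83, 4.33 and 3.62 CPM with DMSO. WT cells had 11.3, 12.3, 7.47 and 7.05 CPM with 5-FU, against 9.25, 7.47, 6.24 and 4.32 CPM with DMSO. The W329G 5-FU libraries lay within the range of their DMSO libraries, and the WT change of 0.48 ± 0.17 log2 passed in the paired fit (edgeR adjusted p = 0.0207) and missed without it (0.0918). NFKBIA, the classical IkB alpha brake, averaged 22.1 ± 5.35 CPM in W329G cells with 5-FU and 18.9 ± 3.95 CPM with DMSO, and 24.8 ± 9.65 CPM in WT cells with 5-FU and 24.6 ± 10.6 CPM with DMSO. Its log2 change was 0.23 ± 0.18 in W329G cells and -0.01 ± 0.18 in WT cells, and neither passed. NFKBIB, the IkB beta inhibitor, had 31.5, 38.5, 23.8 and 22.3 CPM in W329G cells with 5-FU, against 24.9, 31.6, 15.8 and 13.9 CPM with DMSO. Its WT levels were 35, 28.3, 17.9 and 16.8 CPM with 5-FU, against 33.7, 29.2, 23.1 and 13.8 CPM with DMSO. Each W329G pair was higher with 5-FU, the WT pairs went both ways, and the groups overlapped. It overlaps SIRT2 on the opposite strand. In W329G cells it passed in the paired edgeR fit (log2 0.47 ± 0.11, edgeR adjusted p = 0.0179) and missed in edgeR with terms for group and experiment alone. BCL3, a nuclear IkB protein that pairs with p50 and p52, had 13.2, 17.4, 28 and 17.8 CPM in W329G cells with 5-FU, against 12.4, 18.3, 19.4 and 11.8 CPM with DMSO. The WT libraries had 18.5, 21.1, 25.3 and 24.2 CPM with 5-FU, against 14.4, 15.3, 21.4 and 14.9 CPM with DMSO. Each WT pair was higher with 5-FU while the groups overlapped. In WT cells BCL3 passed in the paired edgeR fit (log2 0.44 ± 0.12, edgeR adjusted p = 0.0187) and missed in edgeR with terms for group and experiment alone.

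Of the ubiquitin editors, TNFAIP3 was called in W329G cells and CYLD in WT cells. TNFAIP3, known as A20, removes activating ubiquitin chains from receptor complexes. It had 7.38, 5.84, 3.21 and 3.66 CPM in W329G cells with 5-FU, against 3.07, 2.7, 1.98 and 1.91 CPM with DMSO. Its WT levels were 7.92, 6.99, 4.39 and 2.94 CPM with 5-FU, against 5.53, 4.39, 3.22 and 1.94 CPM with DMSO. Each W329G 5-FU library lay above each W329G DMSO library, while the WT groups overlapped. Such separation above DMSO in W329G cells held for 3 of 35 members, TNFAIP3, BIRC3 and IRF1, against 1.56% of all genes. The log2 change of TNFAIP3 was 1.00 ± 0.21 in W329G cells (edgeR adjusted p = 0.04) and 0.55 ± 0.21 in WT cells (edgeR adjusted p = 0.133). The difference of these, 0.46 ± 0.30, did not pass (edgeR adjusted p = 0.771). Without any 1 of the 4 W329G pairs 0 members passed, while the log2 change of TNFAIP3 stayed at 0.92 to 1.11 and the calls among all genes fell to between 11 and 22, against 129 with every pair. TNFAIP3 overlaps WAKMAR2 on the opposite strand, which had 94 counts in experiment 1 against 1266 for TNFAIP3.

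CYLD, a deubiquitinase that dampens IKK, had 24.2, 18.6, 19.1 and 24.1 CPM in W329G cells with 5-FU, against 18.9, 17.2, 18.6 and 23.4 CPM with DMSO. In WT cells it had 31.3, 32.5, 27.9 and 31.9 CPM with 5-FU, against 19.6, 18.8, 19.9 and 24.3 CPM with DMSO. The WT groups did not overlap, which held for 3 of 35 members above DMSO (CYLD, TRAF4 and BIRC3) against 3.44% of all genes, while the W329G groups did. In the fit over all libraries, the log2 change was 0.14 ± 0.13 in W329G cells (edgeR adjusted p = 0.706) and 0.58 ± 0.13 in WT cells (edgeR adjusted p = 0.0117). TNIP1, a partner of A20, ranged from 52.6 to 90.9 CPM over the W329G libraries and from 58.3 to 127 CPM over the WT libraries, and passed in neither response.

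The receptor adapters held the largest called change. BIRC3, the ubiquitin ligase cIAP2 that acts at TNF receptors and protects from cell death, had 6.27, 4.04, 2.03 and 2.01 CPM in W329G cells with 5-FU, against 1.53, 1.88, 1.69 and 1.68 CPM with DMSO. The WT libraries had 11.8, 8.12, 3.94 and 2.45 CPM with 5-FU, against 1.94, 2.31, 2.22 and 1.14 CPM with DMSO. All 5-FU libraries of a genotype lay above its DMSO libraries, and in both genotypes those of experiment 1 were the higher. The log2 change was 0.90 ± 0.35 in W329G cells (edgeR adjusted p = 0.275) and 1.60 ± 0.35 in WT cells (edgeR adjusted p = 0.0101), which is 3.03-fold. Within WT cells the log2 change was 2.23 in experiment 1 and 0.92 in experiment 2.

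TRAF4, an adapter of the TNF receptor associated family, had 80.9, 112, 105 and 71.5 CPM in W329G cells with 5-FU, against 64.7, 109, 84.5 and 49.1 CPM with DMSO. WT cells had 124, 122, 96.4 and 83.5 CPM with 5-FU, against 73.8, 67.4, 69.2 and 44.9 CPM with DMSO. Every WT 5-FU library lay above every WT DMSO library, and the W329G groups overlapped. This was a log2 change of 0.28 ± 0.20 in W329G cells (edgeR adjusted p = 0.61) and 0.73 ± 0.20 in WT cells (edgeR adjusted p = 0.0363).

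TRAF1, an adapter that is itself a target of NF-kB, had 1.26, 1.19, 0.296 and 0.355 CPM in W329G cells with 5-FU, against 0.419, 0.32, 0.317 and 0.165 CPM with DMSO. Its WT levels were 4.23, 1.42, 1.24 and 0.505 CPM with 5-FU, against 1.9, 0.716, 0.455 and 0.0571 CPM with DMSO. The WT pairs were higher by 1.13, 0.94, 1.34 and 2.31 log2, the last against a DMSO library with 2 counts, so that its size is uncertain, and the call was made in the paired fit (edgeR adjusted p = 0.0103) but not without it (0.141). TRAF2, an adapter that recruits cIAP1 and cIAP2, had 22.2, 19.6, 17.3 and 19.1 CPM in W329G cells with 5-FU, against 24.9, 20, 14.9 and 14.8 CPM with DMSO. In WT cells it had 13.8, 13.3, 11.3 and 11.4 CPM with 5-FU, against 22.3, 17.5, 18.2 and 10.1 CPM with DMSO. It had the lowest estimate among the adapters in WT cells, with a log2 change of -0.43 ± 0.17 that did not pass (edgeR adjusted p = 0.135), against 0.09 ± 0.17 in W329G cells. BIRC2, the ligase cIAP1, had 48.6, 47, 40.2 and 47.6 CPM in W329G cells with 5-FU, against 40.2, 38.2, 47.2 and 53.9 CPM with DMSO. WT cells had 69.7, 51.4, 40.6 and 58.3 CPM with 5-FU, against 40.5, 40.8, 30.9 and 51.7 CPM with DMSO. Each WT pair was higher, and the W329G pairs went both ways. In WT cells BIRC2 passed in the paired edgeR fit (log2 0.42 ± 0.12, edgeR adjusted p = 0.02) and missed in edgeR with terms for group and experiment alone.

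**Figure D2:**
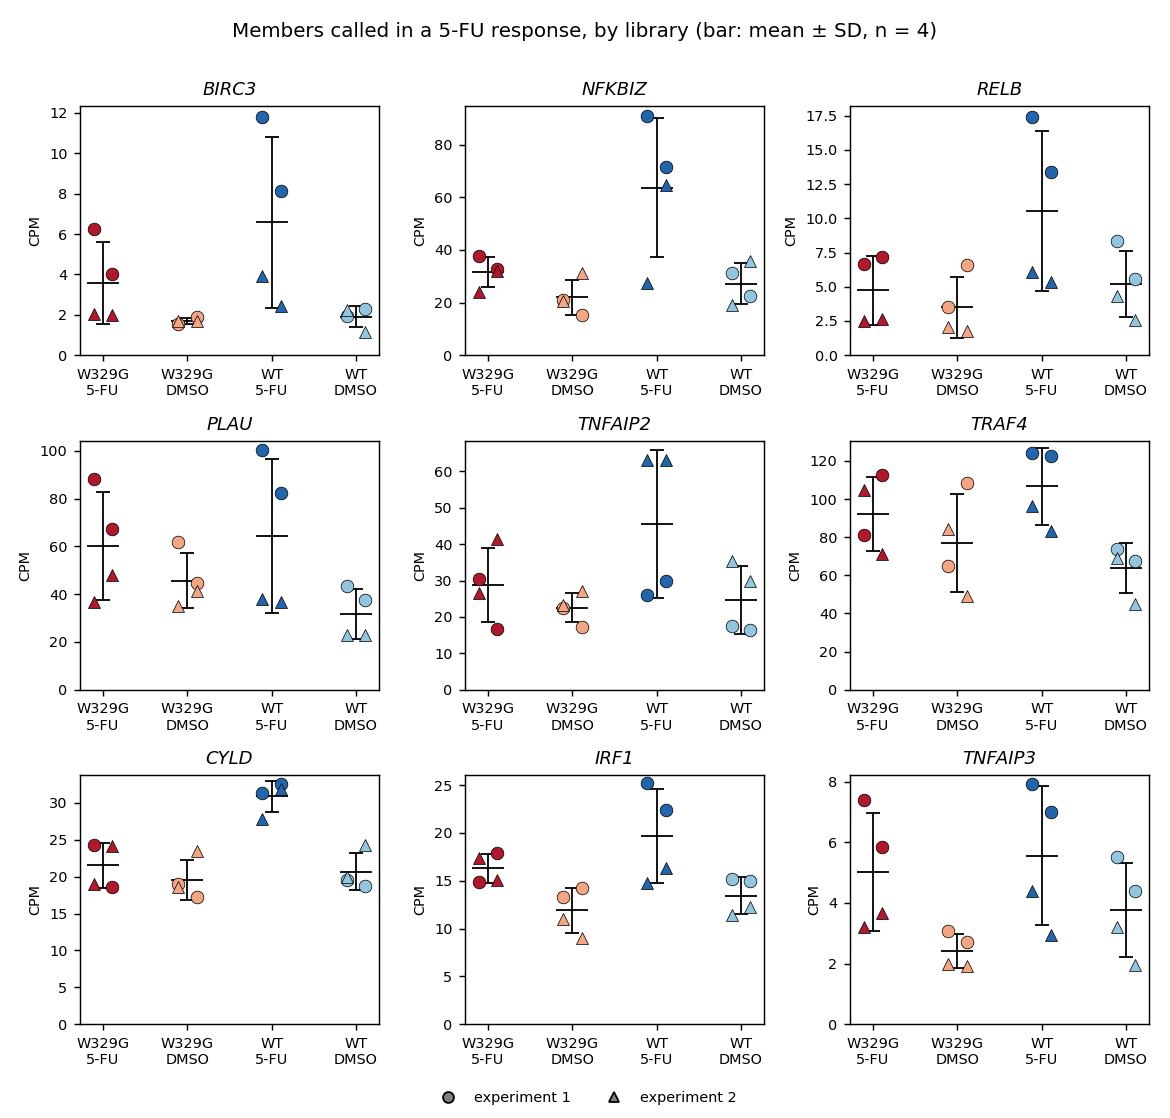
CPM in each library (y axis, from 0) for the 9 members called in a 5-FU response, by group (x axis: W329G with 5-FU, W329G with DMSO, WT with 5-FU, WT with DMSO); circles are experiment 1, triangles experiment 2, bars the mean ± SD of 4 libraries. BIRC3 5-FU libraries lie above the DMSO libraries in both genotypes, CYLD and TRAF4 separate by treatment in WT cells, and TNFAIP3 and IRF1 in W329G cells.

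Among the surface proteins, enzymes and other targets, PLAU, TNFAIP2 and IRF1 rose in WT cells. PLAU encodes urokinase, a protease that activates plasminogen, and had 88.4, 67.1, 36.9 and 48.2 CPM in W329G cells with 5-FU, against 61.9, 44.7, 34.9 and 41.3 CPM with DMSO. The WT libraries had 100.4, 82.4, 38 and 36.7 CPM with 5-FU, against 43.5, 37.6, 22.8 and 23 CPM with DMSO. The WT groups overlapped across experiments, and within each experiment both WT 5-FU libraries lay above both DMSO libraries. In the fit over all libraries, the log2 change was 0.34 ± 0.17 in W329G cells (edgeR adjusted p = 0.406) and 0.95 ± 0.17 in WT cells (edgeR adjusted p = 0.00215). The difference of the responses was -0.61 ± 0.24 (edgeR adjusted p = 0.363), and PLAU was the 1 member called for it in the paired fit (-0.59 ± 0.16, edgeR adjusted p = 0.0494, where 6.14% of all genes were called).

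TNFAIP2, a TNF-induced protein known for shaping membrane protrusions, had 30.4, 16.8, 26.6 and 41.3 CPM in W329G cells with 5-FU, against 22.4, 17.3, 23.3 and 27.2 CPM with DMSO. WT cells had 26.1, 29.9, 63.1 and 63.2 CPM with 5-FU, against 17.4, 16.4, 35.3 and 29.8 CPM with DMSO. In WT cells both experiment 2 libraries of a treatment lay above both of experiment 1, and the treatments overlapped across experiments. The log2 change was 0.33 ± 0.21 in W329G cells (edgeR adjusted p = 0.544) and 0.86 ± 0.21 in WT cells (edgeR adjusted p = 0.0172).

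IRF1, a transcription factor of interferon responses, had 14.9, 17.9, 17.3 and 15.1 CPM in W329G cells with 5-FU, against 13.3, 14.2, 11 and 9.02 CPM with DMSO. Its WT levels were 25.2, 22.4, 14.8 and 16.4 CPM with 5-FU, against 15.2, 15, 11.4 and 12.2 CPM with DMSO. The W329G groups did not overlap and the WT groups did. The log2 changes were close, at 0.48 ± 0.14 in W329G cells (edgeR adjusted p = 0.13) and 0.53 ± 0.14 in WT cells (edgeR adjusted p = 0.0251), with a difference of -0.05 ± 0.20. IER3, an early stress gene and per length the most abundant member in every group, had 197, 204, 70.6 and 72.5 CPM in W329G cells with 5-FU, against 136, 122, 46.4 and 56 CPM with DMSO. The WT libraries had 193, 150, 74 and 91.4 CPM with 5-FU, against 128, 88, 69.4 and 70.5 CPM with DMSO. Each pair was higher with 5-FU, libraries of experiment 2 lay lower, and it passed in the paired fit in both genotypes (log2 0.56 ± 0.11 in W329G cells, edgeR adjusted p = 0.00652, and 0.46 ± 0.11 in WT cells, edgeR adjusted p = 0.00746).

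None of the chemokines and cytokines passed in a response in edgeR with terms for group and experiment alone. CCL2, a chemokine that attracts monocytes, came closest and had 22.1, 62.5, 10.9 and 6.04 CPM in W329G cells with 5-FU, against 12.4, 20.3, 7.46 and 4.12 CPM with DMSO. In WT cells it had 61, 54.7, 24.1 and 8.13 CPM with 5-FU, against 17.3, 21.3, 12 and 4.71 CPM with DMSO. All 4 pairs of each genotype were higher by 0.545 log2 or more, although libraries of different lines and experiments overlapped. In the paired fit the log2 change was 0.92 ± 0.19 in W329G cells (edgeR adjusted p = 0.00877) and 1.26 ± 0.18 in WT cells (edgeR adjusted p = 0.00027), and without pairing the edgeR adjusted p was 0.307 in W329G cells and 0.074 in WT cells.

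The neutrophil chemokines CXCL1, CXCL2, CXCL3 and CXCL8 and the cytokines IL1A, IL1B and IL6 lay higher in experiment 1. CXCL3 had 0.81 to 2.12 CPM in experiment 1 and was still counted in experiment 2, at 0.198 to 0.314 CPM (7 to 15 counts per library). CXCL8 had 6.18 to 16.7 CPM in the 8 libraries of experiment 1 and 0 to 0.457 CPM in the 8 of experiment 2. CXCL1 had 2.66 to 5.41 CPM in experiment 1 and 0 counts in every library of experiment 2. IL6 had 1.19 to 5.74 CPM in experiment 1 and 0 to 0.494 CPM in experiment 2. These ranges do not touch, and the same held for CXCL2, IL1A, IL1B, NFKBIA, NFKBIB and ICAM1, a leukocyte adhesion receptor. How many of all genes separate by experiment in this way was not counted, so this says nothing particular about the members. In experiment 2, IL6 had 0.494 and 0.272 CPM in W329G cells with 5-FU, against 0.0791 and 0 CPM with DMSO, and CXCL8 had 0.202 and 0.457 CPM in WT cells with 5-FU, against 0.255 and 0 CPM with DMSO. At such counts these values are imprecise, and neither gene passed in a response. The IL6 libraries of experiment 1 had 5.74 and 1.19 CPM in W329G cells with 5-FU, against 2.29 and 2.38 CPM with DMSO. Its WT pairs over both experiments went both ways, from -0.98 to 0.85 log2. In experiment 1 alone, the CXCL8 libraries of W329G cells had 13.4 and 8.3 CPM with 5-FU, against 6.67 and 6.18 CPM with DMSO, and those of WT cells had 16.2 and 10.8 CPM with 5-FU, against 16.7 and 7.07 CPM with DMSO.

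Markers of other cell types moved between the experiments in the same direction. The sum of the listed markers was higher in experiment 1 for epithelial cells (39.5 to 73 CPM over 4 genes, against 3.7 to 7.37 CPM in experiment 2) and for leukocytes (39.7 to 134 CPM over 8 genes, against 1.53 to 2.79 CPM). KRT19, an epithelial keratin, had 21.7 to 32.8 CPM in experiment 1 and 0 to 0.0241 CPM in experiment 2. LYZ, lysozyme, had 37.7 to 130 CPM in experiment 1 and 0 to 0.0722 CPM in experiment 2, and made up nearly all of the leukocyte sum. The leukocyte markers PTPRC (0.249 to 0.802 CPM in experiment 1, 0.739 to 1.66 CPM in experiment 2) and CD3E (at most 1 count per library) did not rise with it. The sum for endothelial cells was 2.37 to 11.4 CPM in experiment 1 and 0.914 to 1.75 CPM in experiment 2, and that of the bone and mesenchymal markers 6900 to 13900 CPM and 5590 to 9140 CPM. Some markers also moved with treatment or genotype. In the paired fit the leukocyte marker LYZ (log2 1.06 ± 0.19, edgeR adjusted p = 0.00503) and the endothelial markers CDH5 (2.14 ± 0.51, edgeR adjusted p = 0.0176) and VWF (1.87 ± 0.46, edgeR adjusted p = 0.0208) were higher with 5-FU in W329G cells, and the keratin KRT5 was higher in WT cells (1.97 ± 0.43, edgeR adjusted p = 0.00444). The other epithelial markers EPCAM (-0.29), CDH1 (-0.225) and KRT19 (-0.09) had estimates the other way in WT cells, and none of them passed. Of the bone and mesenchymal markers there, VIM was lower with 5-FU in W329G cells (-0.52) and in WT cells (-0.36), and ALPL (0.85) and CDH11 (0.38) were higher in WT cells. Without pairing none of these passed in edgeR, while DESeq2 called VWF (DESeq2 adjusted p = 0.0199) and VIM (DESeq2 adjusted p = 0.043) in W329G cells. Between genotypes under 5-FU, KRT5 (-3.70 ± 0.69, edgeR adjusted p = 0.00969) and ALPL (-1.73 ± 0.37, edgeR adjusted p = 0.0158) were lower in W329G cells. There EPCAM (0.519), CDH1 (0.687) and KRT19 (0.161) had estimates above WT and did not pass in edgeR. With the cell numbers exchanged in experiment 2 neither KRT5 nor ALPL passed (edgeR adjusted p = 0.128 for KRT5 and 0.261 for ALPL). KRT5 had 0.586 to 20.8 CPM in experiment 1 and 0.0209 to 0.405 CPM in experiment 2. The part of these markers in the responses, the genotype differences and the chemokine and cytokine values was not tested.

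**Figure D3:**
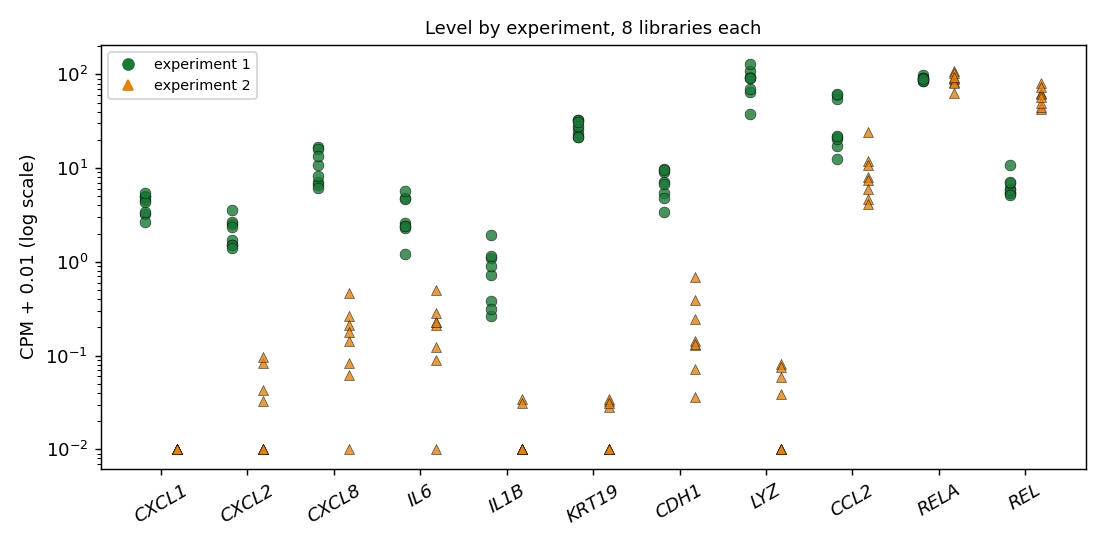
CPM plus 0.01 (y axis, log scale) of 8 members and 3 markers of other cell types (KRT19, CDH1, LYZ) in the 8 libraries of experiment 1 (circles, left) and the 8 of experiment 2 (triangles, right). CXCL1, CXCL2, CXCL8, IL6 and IL1B lie higher in experiment 1 together with the markers, RELA overlaps, and REL lies higher in experiment 2.

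The genotypes were then compared directly under each treatment, on counts summed per line, with 2 lines of each genotype. Under 5-FU, the test called RELB, NFKBIE, NFKBIZ, CYLD, TNFAIP2 and IL32 lower and TRAF2 higher in W329G cells. That is 7 of 35 members, where 14.3% of 17494 genes were called, 7.24% higher and 7.08% lower. Under DMSO, IL32 was called lower and PLAU higher in W329G cells, 2 of 35 members where 1.38% of genes were called, 0.434% higher and 0.949% lower. DESeq2 called 8 members under 5-FU (19.1% of genes) and 2 under DMSO (7.32%). The median log2 difference of the members was -0.09 under 5-FU against -0.01 for all genes, and -0.18 under DMSO against -0.002 for all genes. These calls depend on the tie between cell numbers of the experiments: with the numbers exchanged in experiment 2, 0 members passed under 5-FU (222 of all genes did, against 2505) and 0 under DMSO (2 of all genes did, against 242). The differences themselves moved little, to -1.04 for RELB, -0.86 for NFKBIE, -0.91 for NFKBIZ, -0.50 for CYLD, -0.77 for TNFAIP2 and 0.67 for TRAF2 under 5-FU and to 0.62 for PLAU under DMSO. Lines 1 and 2 differed in opposite ways in the experiments, so sums by number even out part of the spread. The SE given for genotype differences may therefore be too small. For MDM2 under 5-FU it was 0.145 with the numbers as labelled and 0.244 with them exchanged. Without W329G cells 1 the count under 5-FU was 0 (319 of all genes), and without W329G cells 2 it was 1 (178 of all genes). Under DMSO it was 0 without W329G cells 1 (1 of all genes), without W329G cells 2 (1 of all genes) and without WT cells 1 (134 of all genes).

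IL32, a proinflammatory cytokine, was called lower in W329G cells under both treatments and showed no response to 5-FU that passed. It had 2.68, 5.84, 1.51 and 1.27 CPM in W329G cells with 5-FU, against 9.65, 14.7, 7.17 and 2.41 CPM in WT cells with 5-FU. With DMSO it had 3.88, 5.58, 1.21 and 0.922 CPM in W329G cells, against 6.63, 12.5, 9.13 and 2.46 CPM in WT cells. WT cells 2 of experiment 2 lay within the W329G range under both treatments, and the other WT libraries lay above it. The log2 difference was -1.57 ± 0.23 under 5-FU (edgeR adjusted p = 0.00326) and -1.47 ± 0.23 under DMSO (edgeR adjusted p = 0.0287). With the cell numbers exchanged it was -1.52 under 5-FU (edgeR adjusted p = 0.224) and -1.38 under DMSO (edgeR adjusted p = 0.628). Within experiments it was -1.52 and -1.80 under 5-FU and -1.01 and -2.44 under DMSO, for experiments 1 and 2.

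Of the members that rose in WT cells, 4 were called lower in W329G cells under 5-FU, a comparison that shares the WT 5-FU libraries with the WT response. The log2 difference was -1.04 ± 0.24 for RELB (edgeR adjusted p = 0.0221), -0.89 ± 0.17 for NFKBIZ (edgeR adjusted p = 0.0119), -0.74 ± 0.14 for TNFAIP2 (edgeR adjusted p = 0.00994) and -0.48 ± 0.12 for CYLD (edgeR adjusted p = 0.0254). NFKBIE was lower by a log2 difference of -0.86 ± 0.17 (edgeR adjusted p = 0.0128). The library values given above show that every W329G 5-FU library lay below every WT 5-FU library for CYLD and NFKBIE. CD83 did the same without passing, so that 3 of 35 members lay below, against 5.08% of all genes. Under DMSO the corresponding differences did not pass, at -0.48 ± 0.24 for RELB, -0.24 ± 0.18 for NFKBIZ, -0.23 ± 0.14 for TNFAIP2, -0.08 ± 0.12 for CYLD and -0.38 ± 0.17 for NFKBIE. BIRC3, the member with the largest called rise in WT cells, differed by -0.70 ± 0.28 under 5-FU and did not pass (edgeR adjusted p = 0.135). For TNFAIP2 the difference under 5-FU was -0.24 in experiment 1 alone and -0.92 in experiment 2 alone.

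TRAF2 was the member called higher in W329G cells under 5-FU, by 0.68 ± 0.18 log2 (edgeR adjusted p = 0.0342). Its 4 W329G 5-FU libraries, between 17.3 and 22.2 CPM, lay above its 4 WT 5-FU libraries, between 11.3 and 13.8 CPM, the 1 member to do so, against 6.46% of all genes. Under DMSO the difference was 0.17 ± 0.17 and the libraries overlapped. PLAU was higher in W329G cells under DMSO by 0.63 ± 0.12 log2 (edgeR adjusted p = 0.0482), and under 5-FU the difference was 0.06 ± 0.12 (edgeR adjusted p = 0.802). CD83, a surface marker of activated immune cells, had 5.11, 4.87, 3.63 and 5 CPM in W329G cells with 5-FU, against 8.08, 6.61, 5.55 and 5.34 CPM in WT cells with 5-FU. With DMSO it had 6.25, 4.48, 3.69 and 5.93 CPM in W329G cells, against 8.15, 6.54, 6.78 and 8 CPM in WT cells. The genotypes did not overlap under either treatment, and CD83 was the 1 member lying below under DMSO, against 1.8% of all genes, while 0 lay above, against 1.59%. Its log2 difference did not pass under 5-FU (-0.39 ± 0.16, edgeR adjusted p = 0.147) or DMSO (-0.51 ± 0.16, edgeR adjusted p = 0.146). PTGS2, the inducible cyclooxygenase, was at 0.87 ± 0.25 under 5-FU (edgeR adjusted p = 0.0511) and was the member that DESeq2 added there.

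**Figure D4:**
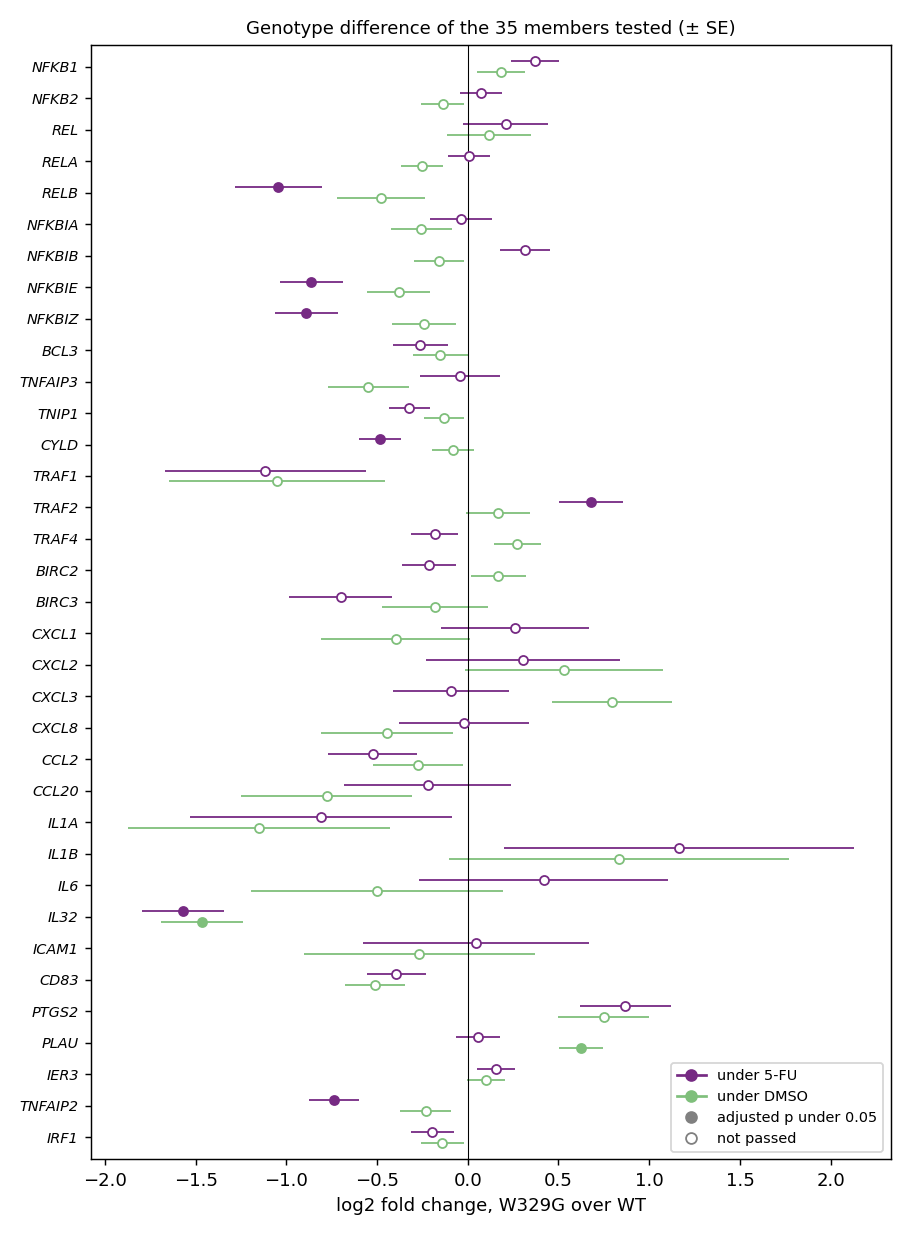
Log2 fold change (W329G over WT, x axis) of the 35 members tested, with the estimate under 5-FU above that under DMSO for each gene; bars are standard errors and filled points have an adjusted p under 0.05. IL32 is filled under both treatments (-1.57 and -1.47), and the other filled points under 5-FU run from -1.04 for RELB to 0.68 for TRAF2.

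**Figure D5:**
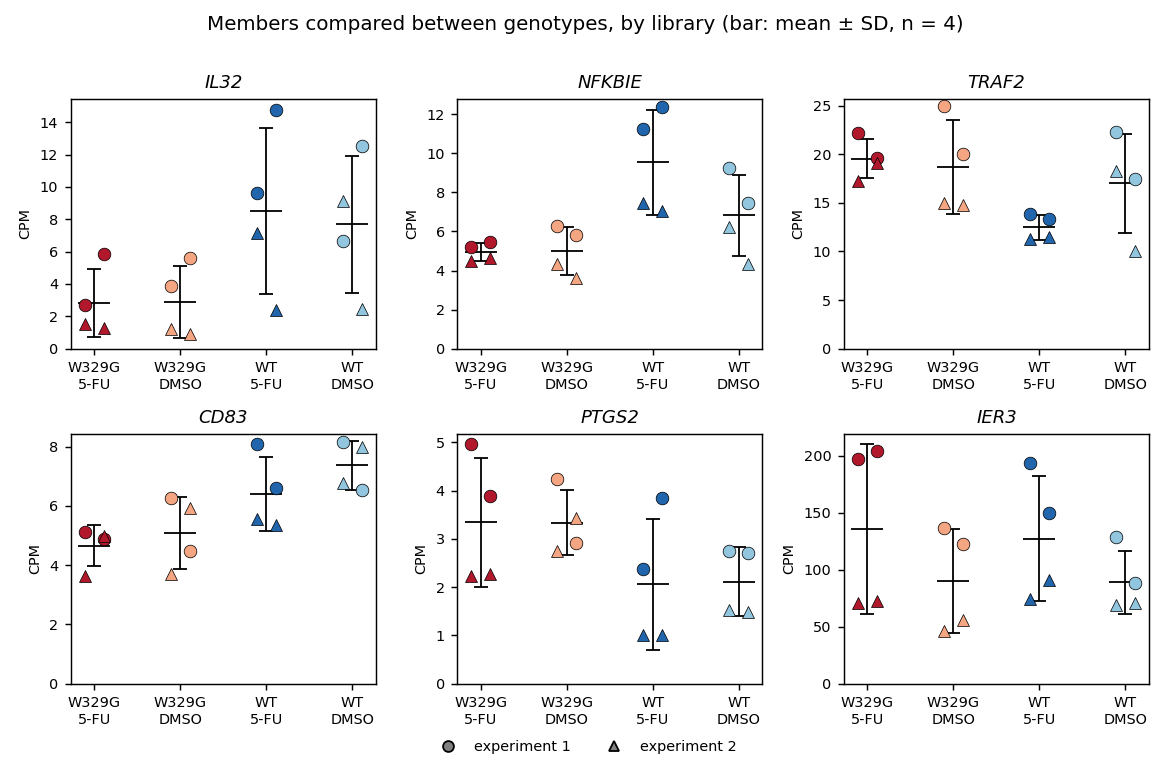
CPM in each library (y axis, from 0) for 6 members, by group (x axis: W329G with 5-FU, W329G with DMSO, WT with 5-FU, WT with DMSO); circles are experiment 1, triangles experiment 2, bars the mean ± SD of 4 libraries. NFKBIE and CD83 lie lower and TRAF2 higher in every W329G 5-FU library than in any WT 5-FU library, while IL32 overlaps through WT cells 2 of experiment 2.

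A list of 153 other genes of the pathway gave the wider setting. In W329G cells 1 of 139 tested rose with 5-FU and 0 fell, where 0.195% of all genes rose and 0.59% fell. The riser was SERPINB2, a plasminogen activator inhibitor (log2 3.82 ± 0.66, edgeR adjusted p = 0.017, at 0.788 ± 0.92 CPM with 5-FU and 0.0495 ± 0.0671 CPM with DMSO). The DMSO mean lies below the level of 3 counts, so that fold is uncertain. In experiment 1 alone the log2 change of SERPINB2 was 3.98 (edgeR adjusted p = 0.262), where 0 of all genes were called. In experiment 2 alone SERPINB2 was too low to be tested. In WT cells 16 of 139 rose and 0 fell, where 3.56% of all genes rose and 5.23% fell. Of these risers 13 were among the 54 targets tested. EDA2R, a TNF receptor family member, rose by 1.86 ± 0.15 log2 (edgeR adjusted p = 4.6e-06). TAP1, a peptide transporter of antigen presentation, rose by 1.30 ± 0.13 (edgeR adjusted p = 2.1e-05), and NINJ1, an adhesion protein that ruptures membranes in dying cells, by 1.24 ± 0.19 (edgeR adjusted p = 0.000661). The difference of responses passed for 2 of 139, EDA2R and TAP1, where 1.2% of all genes were called. Both responses were smaller in W329G cells, with differences of -1.36 ± 0.21 log2 (edgeR adjusted p = 0.003) and -0.845 ± 0.185 log2 (edgeR adjusted p = 0.0327). With a term for each line the edgeR adjusted p was 0.0103 for EDA2R and 0.0502 for TAP1, which then missed. Of the 45 genes signalling to IKK that were tested, 0 passed in W329G cells and 1 in WT cells, where 0.784% and 8.79% of all genes were called. The median log2 change of the list was 0.14 in W329G cells against 0.02 for all genes, and 0.17 in WT cells against 0.01 for all genes.

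Between genotypes under 5-FU, 2 of 143 pathway genes were higher in W329G cells and 24 were lower, where 7.24% of all genes were higher and 7.08% lower. Of the lower ones 17 were among the 56 targets tested. The highest by p were IL18R1, an interleukin 18 receptor chain (2.14 ± 0.37, edgeR adjusted p = 0.00701), and CHUK, the IKK alpha kinase (0.46 ± 0.12, edgeR adjusted p = 0.0375). The lower ones were led by TGM2, a transglutaminase (-3.07 ± 0.12, edgeR adjusted p = 2.14e-05), EDA2R (-1.49 ± 0.12, edgeR adjusted p = 0.000313) and MMP9, a matrix protease (-2.24 ± 0.27, edgeR adjusted p = 0.00143). Under DMSO 0 were higher and 2 lower, where 0.434% of all genes were higher and 0.949% lower. The 2 were TGM2 (-2.72 ± 0.12, edgeR adjusted p = 5.61e-05) and MMP9 (-1.89 ± 0.26, edgeR adjusted p = 0.0213). With the cell numbers exchanged in experiment 2 the edgeR adjusted p under 5-FU was 0.0112 for TGM2, 0.0152 for EDA2R, 0.0604 for MMP9, 0.0983 for IL18R1 and 0.475 for CHUK, and under DMSO it was 0.0919 for TGM2 and 0.539 for MMP9. On single libraries it was 0.116 for CHUK under 5-FU and 0.0671 for MMP9 under DMSO. The median log2 difference of the list was -0.165 under 5-FU against -0.01 for all genes, and -0.07 under DMSO against -0.002 for all genes.

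The WT count of 8 depended on single pairs, as did the 1445 calls among all genes. It was 2 without cells 1 of experiment 1 (751 of all genes), 1 without cells 2 of experiment 1 (664), 7 without cells 1 of experiment 2 (1176) and 4 without cells 2 of experiment 2 (660). In experiment 1 alone it was 2 (205 of all genes) and in experiment 2 alone 0 (0 of all genes). PLAU was called with each pair left out, at a log2 change of 0.86 to 1.04.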

How the data were processed

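The authors deposited 1 table of raw read counts per gene for each of 16 libraries. Per the labels' protocols, poly-A RNA went into a TruSeq preparation. The submitters' processing notes name hg19, whereas 96.3% of the 56898 experiment 1 genes shared with GENCODE release 29 have its GRCh38 coordinates. The sources used here name no aligner or counter, and do not say whether strand was used. The experiments were joined by symbol, 28706 genes holding 97.93% to 98.93% of each library. Depth was 24715999 to 56877328 counts, so precision is limited by the few lines, and by counting error near 0.

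Responses and their difference were tested on all 16 libraries with terms for group and experiment, and genotypes on 8 sums per line and treatment, in edgeR 4.0.16 (R 4.3.3): quasi-likelihood F test, TMM factors, filterByExpr, Benjamini-Hochberg adjustment over all genes tested, threshold 0.05. DESeq2 1.42.0, other scaling, no filter, blocks, single experiments and left-out lines or pairs were tried. Levels are CPM on TMM-scaled library sizes, ± is SD for levels and SE for log2 changes, and log2 changes per pair used a prior count of 2. Same-numbered DMSO and 5-FU libraries of an experiment come from the same line, and their deviations correlated (r = 0.487 and 0.596 in WT, 0.708 and 0.632 in W329G cells, across genes). The pairing fit was chosen after seeing the data. The labels do not say whether the experiments used separate cultures, so the spread behind the p-values may be technical. For the responses it is the spread among the 16 libraries. For the genotypes it is the spread between the line sums of a group, with DMSO and 5-FU sums of a line taken as separate. Every member called, or changed by at least 0.5 log2 in all 4 pairs of a genotype at 1 CPM or more, is given by library; of the pathway list, the 3 called genes of smallest p per direction and comparison are named. NFKBIB, BCL3, BIRC2, IER3, IL6, CXCL8, CD83 and PTGS2 values were added after they were seen. The members and lists were chosen with earlier results of these data known.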

Additional observations from a re-analysis of the deposited data

Results flagged for a closer look

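In 5 of 140 groups of 4 libraries, 1 library stood apart from the other 3 by Dixon's criterion. The criterion is set for about 1 in 20 groups, or 7, when the 4 values share 1 level. The groups here mix 2 experiments whose levels differed for some members, so 7 is no firm expectation. IL6 was highest in W329G 5-FU cells 1 of experiment 1, at 5.74 CPM against 0.272, 0.494 and 1.19 CPM in the others, and the low values are those of experiment 2 and of cells 2. CD83 was lowest in W329G 5-FU cells 1 of experiment 2, at 3.63 CPM against 4.87, 5 and 5.11 CPM. IL1B was highest in W329G DMSO cells 2 of experiment 1, at 1.92 CPM against 0, 0 and 0.307 CPM. BCL3 was highest in WT DMSO cells 1 of experiment 2, at 21.4 CPM against 14.4, 14.9 and 15.3 CPM. CCL20, a chemokine for dendritic cells and lymphocytes, was highest in WT DMSO cells 1 of experiment 1, at 3.17 CPM against 0.4, 0.716 and 0.772 CPM.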

How the results depend on the processing

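No member that was called changed direction under any alternative run. Counts of members are followed by those of all genes in parentheses. In WT cells 8 members were called (1445), against 15 with a replicate block for line and experiment (4072), 2 in experiment 1 alone (205), 0 in experiment 2 alone (0) and 1 to 7 with a pair left out (660 to 1176). In W329G cells 1 was called (129), against 5 with that block (1796), 3 in DESeq2 (572), 0 without a filter on low counts (99), 0 in each experiment alone (0 in each) and 0 to 0 with a pair left out (11 to 22). For the difference of responses 0 were called (198), against 1 with that block (1010). Between genotypes under 5-FU 7 were called (2505), against 0 with cell numbers exchanged (222), 2 in experiment 1 alone (421), 0 in experiment 2 alone (30) and 0 to 8 with a line left out (178 to 2955). Under DMSO 2 were called (242), against 0 on single libraries (153), 0 with numbers exchanged (2), 0 in experiment 1 alone (0), 0 in experiment 2 alone (4) and 0 to 2 with a line left out (1 to 2305). With a block for the line alone the WT, W329G and difference counts were 9, 1 and 0, and with the cell number as a block the genotype counts were 8 under 5-FU and 2 under DMSO.

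The difference between lines 1 and 2 ran opposite ways in the experiments (r across genes -0.568 in W329G and -0.302 in WT cells under 5-FU, -0.485 and -0.19 under DMSO), so the numbers may be crossed. Single experiments hold fewer libraries. The cause of the other shifts was not tested.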
